A study of Mus musculus with 2 samples.

Results

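The cytosolic ribosome is built from RNA and from proteins of the large subunit, whose genes are named Rpl, and of the small subunit, whose genes are named Rps. The genes described here were chosen by name and annotation: a symbol of the Rpl, Rps, Rplp0 to Rplp2 or Rpsa form and at least 1 transcript typed protein-coding. Of 90 genes with such a symbol, 6 had no protein-coding transcript (Rpl32l, Rpl6l, Rps12l1, Rps3a2, Rps3a3 and Rps4l) and were left out. This gave 84 genes, 52 of the large and 32 of the small subunit, out of 55536 annotated genes and 22015 nuclear protein-coding genes. They lie on 19 chromosomes, 14 of them on chromosome 7 and 4 on the X chromosome.

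The study sequenced total RNA from mouse hippocampus, given in the labels as layer of hippocampus tissue, in 2 libraries. These are labelled biological replicates 1 and 2 and form 1 group with no second condition. The tissue came from females of the strain B6CASTF1/J, a cross of an inbred laboratory strain with a wild-derived one, at 2 months of age, and each library was made from 300 ng of RNA with ERCC spike-in RNAs added. The labels give both tissue records the same donor record, so the spread between the libraries may be partly technical. Library totals over annotated genes were 29490868 and 30691881 expected counts in replicates 1 and 2, of which the 84 genes held 171481 and 181630.

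Each library was quantified by the authors in 2 ways from the same reads, called here the first quantification (gene and transcript tables with expected counts) and the second (a transcript table with estimated counts, summed per gene here). Levels are in TPM, a unit per length of transcript that sums to the same total in every library, and come from the first quantification unless the second is named. With 1 group of 2 libraries there is no contrast to test, so the values below are descriptions with their SD (n = 2), and the 84 genes are set beside all genes measured the same way.

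Ribosomal proteins are made in the cytoplasm, enter the nucleolus, and are assembled there on ribosomal RNA before the finished subunits are exported. Their mRNAs are short, are transcribed strongly in almost every cell, and in mammals begin with a run of pyrimidines (the 5′ terminal oligopyrimidine, or TOP, motif) through which mTOR signalling sets how much of the mRNA is translated. In neurons these mRNAs are also found in axons and dendrites, and phosphorylation of the protein of Rps6 is widely used as a mark of recent activity.

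The starts of 9 of the genes are shown because this pyrimidine run is the sequence that the family is best known for. Each line covers 25 bases before and 25 after an annotated start, taken from RefSeq (GRCm38.p6), 5′ to 3′ on the strand of the gene; capitals mark runs of 8 or more C or T that lie between 20 bases before and 30 after the start. Where RefSeq gives several starts, the one with the longest run is shown. The first 6 are canonical ribosomal protein genes and the last 3 are diverged paralogs.
Rpl38: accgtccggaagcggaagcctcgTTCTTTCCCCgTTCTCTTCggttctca
Rps27: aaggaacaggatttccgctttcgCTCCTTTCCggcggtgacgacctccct
Rps10: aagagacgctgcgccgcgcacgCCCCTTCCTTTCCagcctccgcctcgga
Rpl35a: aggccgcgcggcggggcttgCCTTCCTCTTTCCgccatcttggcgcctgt
Rpl15: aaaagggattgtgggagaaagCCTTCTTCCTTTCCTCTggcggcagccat
Rpl27a: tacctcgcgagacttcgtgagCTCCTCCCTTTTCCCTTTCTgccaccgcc
Rpl22l1: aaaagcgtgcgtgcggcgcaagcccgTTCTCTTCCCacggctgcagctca
Rps27l: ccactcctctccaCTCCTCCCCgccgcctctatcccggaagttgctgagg
Rpl7l1: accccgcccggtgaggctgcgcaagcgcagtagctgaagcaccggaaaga

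These windows lie at chr11:114668555-114668604 (Rpl38, + strand), chr3:90213624-90213673 (Rps27, - strand), chr17:27635220-27635269 (Rps10, - strand), chr16:33056457-33056506 (Rpl35a, + strand), chr14:18270962-18271011 (Rpl15, - strand), chr7:109519170-109519219 (Rpl27a, + strand), chr3:28805483-28805532 (Rpl22l1, + strand), chr9:66946061-66946110 (Rps27l, + strand) and chr17:46782632-46782681 (Rpl7l1, - strand). Among the 9 genes shown, the longest run was 20 bases in Rpl27a and 17 in Rpl15, and Rpl7l1 had none of 8. RefSeq promoter entries matched 64 of the 84 genes. A gene was counted below where any of its entries held the letters, with no correction for the number of entries. A pyrimidine run of that length and place, searched on the gene's strand, stood in 34 of these 64 (53.1%) and in 3528 of 16522 protein-coding genes with an entry (21.4%). The letters CCGGAAG, the core that ETS-family factors recognise, searched on both strands in the 250 bases before and 50 after the start, stood in 26 of 64 (40.6%) and in 13.4% of all such genes. The letters TATAAA, on the gene's strand in the 50 bases before the start, stood in 1 of 64, Rpl22l1, and in 3.7% of all. These are matches of letters to annotated starts and not measured starts.

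Of the 84 genes, 81 stood at 1 TPM or more in both libraries, against 58.0% of nuclear protein-coding genes. Summed over the family, levels came to 14468 and 14707 TPM in replicates 1 and 2. That was 3.57% and 3.65% of all nuclear protein-coding TPM (mean 3.61% ± 0.0507, SD, n = 2), held by 0.382% of the genes. By expected counts, which do not correct for the short transcripts, the share was 0.751% ± 0.0105. The median gene of the family stood at 155.6 and 156.3 TPM in replicates 1 and 2, above 98.3% of nuclear protein-coding genes, whose own median was 3.27 and 3.24 TPM. Around that median, 65 genes in replicate 1 and 64 in replicate 2 lay within 1 log2 unit. In bulk tissue, a lower level of a gene cannot be told apart from fewer cells that express it.

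**Figure D1:**
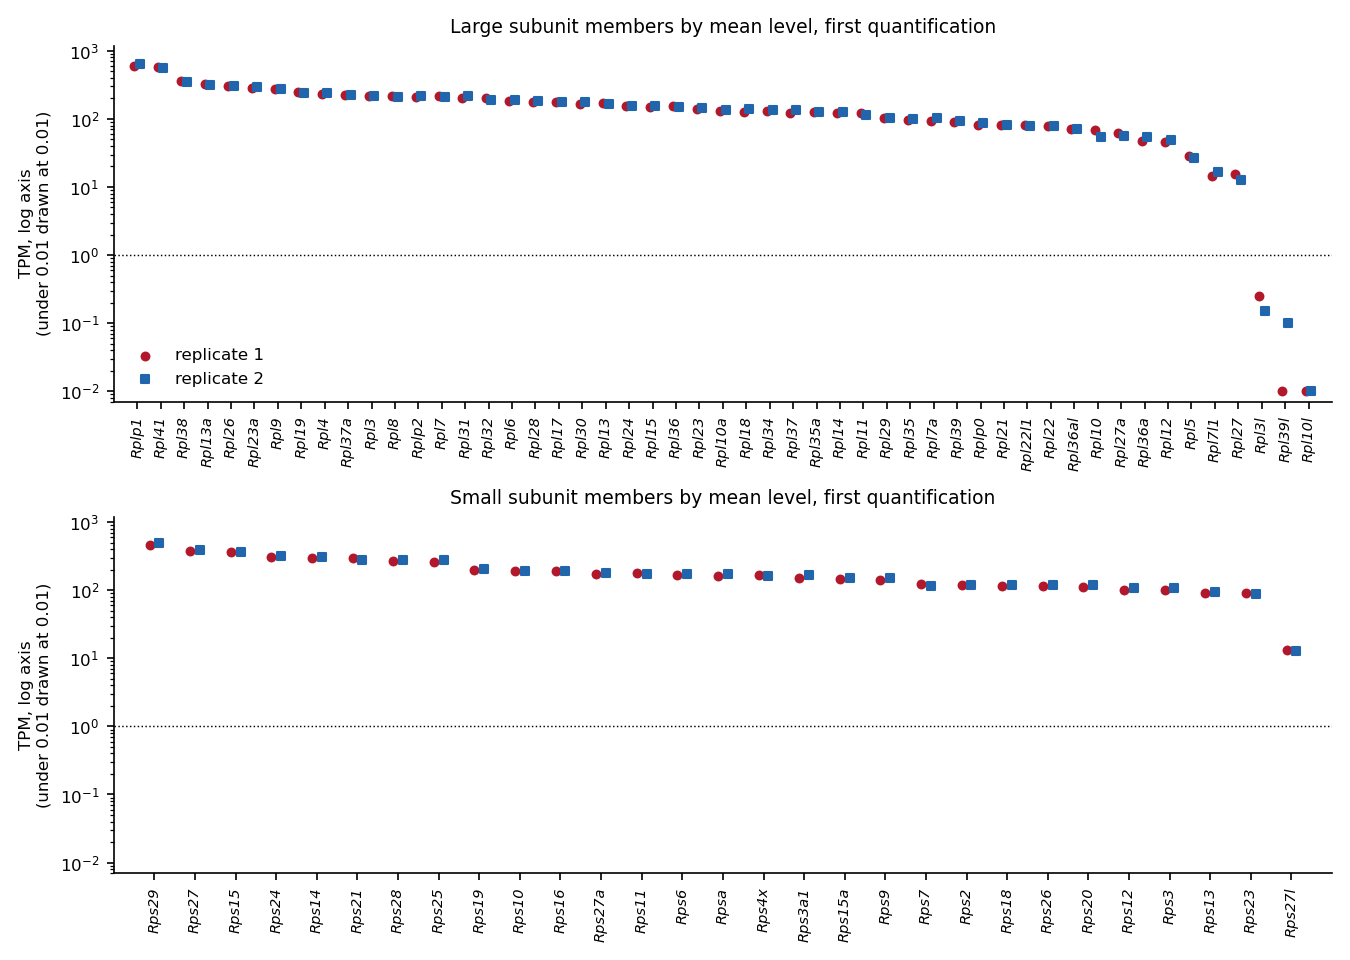
Level of 80 of the 84 genes in TPM on a log axis, large subunit above and small subunit below, ordered by mean level; circles are replicate 1, squares are replicate 2, and the dotted line is 1 TPM. Most genes lie close to the family median of 155.9 TPM, and only Rpl3l, Rpl39l and Rpl10l fall below the line.

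The highest level in the family belonged to Rplp1, which codes for an acidic protein of the lateral stalk where elongation factors dock. It stood at 589.7 and 647.0 TPM in replicates 1 and 2 (chromosome 9, 61913284 to 61914542, - strand, mm10). The stalk's other acidic protein, Rplp2, stood at 211 and 214 TPM, and Rplp0, which anchors both acidic proteins to the ribosome, at 80.3 and 88.0 TPM. Within the stalk the order Rplp1, Rplp2, Rplp0 was the same in both libraries, and the ranges of the 3 genes did not overlap.

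Rpl41, whose product is the shortest protein of the ribosome, came second at 577 and 562 TPM (chromosome 10, 128548114 to 128549305, - strand). Rps29, a small zinc-binding protein of the small subunit, followed at 463 and 488 TPM, and Rps27, another zinc-binding protein, at 377 and 389 TPM. Neighbours in the order then drew close. Rps15 stood at 360.0 and 362 TPM and Rpl38, a protein whose loss in mice disturbs the axial skeleton, at 362 and 353 TPM, so these 2 overlapped. Rpl13a, known in immune cells for a role outside the ribosome, had 326 and 316 TPM.
Rps24, one of the genes mutated in human Diamond-Blackfan anaemia, had 307 and 321 TPM, and Rpl26, which sits near the end of the exit tunnel, had 303 and 305 TPM. Rps14, the gene lost in the human 5q- syndrome, had 299.5 and 304 TPM. All 10 of these genes code for proteins of the core ribosome, with 5 of the large and 5 of the small subunit among them.

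At the low end, 3 genes fell below 1 TPM, and each is a paralog known from another tissue. Rpl3l, which replaces Rpl3 in heart and skeletal muscle, had 7 and 4 expected counts in replicates 1 and 2 (0.25 and 0.15 TPM). Rpl39l, known from developing sperm, had 0 and 1 expected counts. For Rpl10l, a retrogene known from the testis that stands in for the X-linked Rpl10, no count was seen in either library. A count of 0 allows up to 3 counts, or 0.102 and 0.0977 CPM (counts scaled to the library total) in replicates 1 and 2, and this limit covers counting error only.

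Above these 3, the lowest detected genes were Rps27l at 13.5 and 12.8 TPM, Rpl27 at 15.6 and 12.8 TPM and Rpl7l1 at 14.5 and 16.7 TPM in replicates 1 and 2. The range of Rpl27 overlaps those of both others, while Rps27l lay below Rpl7l1 in both libraries. In the second quantification Rps27l was the higher of that pair, at 30.01 and 29.3 TPM against 21.6 and 23.8 TPM. Rpl5, which binds 5S ribosomal RNA, stood at 28.5 and 26.8 TPM, and Rpl12, a protein at the base of the stalk, at 46.2 and 48.9 TPM. In the first quantification the copies of Rpl27 and those of Rpl5 held more counts than the genes themselves, as set out further below. What this did to the TPM of the 2 genes was not tested.

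Medians of the subunits differed a little: 135.6 and 142 TPM over the 52 large-subunit genes, against 169 and 172 TPM over the 32 small-subunit genes, in replicates 1 and 2. On the log2 scale the large subunit lay 0.30 ± 0.03 below the small one (SD, n = 2). Without the paralogs the difference was -0.14. In the second quantification it had the opposite sign, at 333 and 339 TPM for the large and 325.3 and 326 TPM for the small subunit, so no direction between the subunits held in both.

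Some members act outside protein synthesis. Rpl5 and Rpl11 form a particle with 5S ribosomal RNA that binds Mdm2 and so links failed ribosome assembly to p53; Rpl11 stood at 123.7 and 114 TPM, and Rpl5 (above) lay well below it in both libraries. Rps6, the protein phosphorylated downstream of mTOR, had 169.6 and 174 TPM. Rpsa, also known as the laminin receptor precursor, had 160.4 and 172 TPM. Rps27a, which is made as a fusion with ubiquitin, had 174 and 179 TPM. The last 3 lay near the family median.

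The 4 X-linked genes of the family stood at different levels. Rps4x had 168 and 163 TPM in replicates 1 and 2, Rpl39 had 91.1 and 94.3 TPM, Rpl10 had 69.7 and 53.6 TPM and Rpl36a had 47.5 and 53.5 TPM. All but Rps4x lay below the family median in the first quantification. In the second, where that median was 329 and 334 TPM, Rpl10 lay above it at 446 and 440.3 TPM and Rps4x below it at 272 and 265 TPM, so the place of these genes turned round.

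The 7 paralog pairs with both genes in the family fell into 3 kinds. In 3 pairs the paralog was at or near 0: Rpl3l beside Rpl3 (217 and 218 TPM for Rpl3), Rpl39l beside Rpl39, and Rpl10l beside Rpl10. In 2 pairs it was expressed well below its partner. Rps27l, which is induced by p53, had 13.5 and 12.8 TPM, against 377 and 389 TPM for Rps27, a log2 ratio of -4.87 ± 0.08. Rpl7l1, named for its likeness to Rpl7 and known as an assembly factor, had 14.5 and 16.7 TPM, against 214 and 210.1 TPM for Rpl7 (log2 ratio -3.77 ± 0.16).

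In the last 2 pairs the partners were close. Rpl22l1 stood at 80.3 and 78.2 TPM, against 77.9 and 78.9 TPM for Rpl22, with a log2 ratio of 0.02 ± 0.04. The sign of that ratio differed between the 2 libraries, so neither gene was higher. In the second quantification Rpl22l1 stood at 209 and 204 TPM, against 166 and 165 TPM for Rpl22. On protein-coding transcripts alone, however, Rpl22l1 fell to 16.8 and 3.51 TPM, against 73.1 and 74.2 TPM for Rpl22. In the second quantification the same restriction put Rpl22l1 above Rpl22, at 96.7 and 71.1 TPM against 39.5 and 38.6 TPM.
Rpl36al is a copy of the X-linked Rpl36a and makes a nearly identical protein. It had 71.4 and 71.8 TPM, against 47.5 and 53.5 TPM for Rpl36a (log2 ratio 0.51 ± 0.12). The second quantification reversed this, with 121.7 and 119.5 TPM for Rpl36al and 165 and 185 TPM for Rpl36a. On protein-coding transcripts alone Rpl36al was higher in both quantifications, with log2 ratios of 0.83 ± 0.11 in the first and 1.33 ± 0.38 in the second. The coding sequences of Rpl36al and Rpl36a shared 87.7% of aligned bases, the highest among the 7 pairs, and those of Rpl7l1 and Rpl7 shared 63.4%, the lowest.

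**Figure D2:**
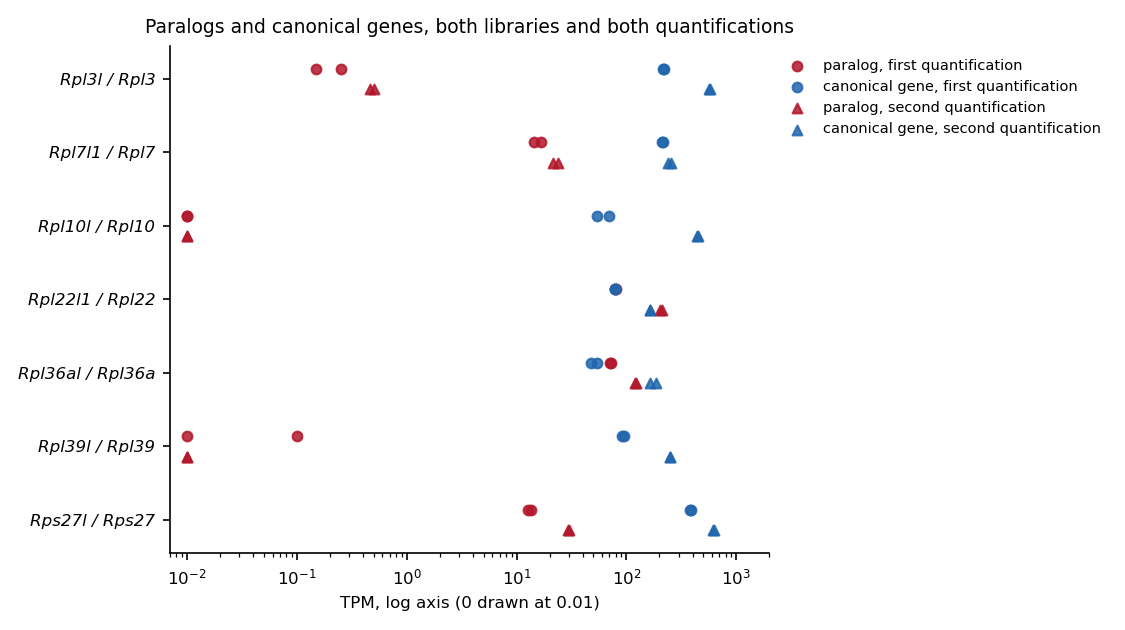
Level in TPM on a log axis of each paralog (red) and its canonical partner (blue); circles are the first and triangles the second quantification, with 1 point per library and 0 drawn at 0.01. The paralogs of Rpl3, Rpl10 and Rpl39 lie below 1 TPM, those of Rpl22 and Rpl36a beside their partners, and the order within Rpl36al and Rpl36a turns round between the quantifications.

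The first 60 coding bases of Rps27l and Rps27 are shown as an example of how far the bases of an expressed paralog have diverged. Both run 5′ to 3′ from the start codon, were read from the M21 transcripts (longest coding sequence), and have capitals where the 2 differ. The genes lie at chr9:66946086-66949516 (+ strand) and chr3:90212522-90213651 (- strand).
Rps27l: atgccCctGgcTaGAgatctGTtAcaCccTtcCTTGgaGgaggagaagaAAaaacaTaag
Rps27: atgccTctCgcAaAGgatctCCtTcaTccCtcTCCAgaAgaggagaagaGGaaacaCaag

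The coding sequences taken were 315 bases long in Rps27l and 252 in Rps27. Over the 251 aligned coding bases this pair was 75.3% identical, a measure of bases and not of the proteins. Rps27l held 119 and 117 expected counts in the first quantification and 109 and 108 estimated counts in the second, so its counts lay close. Its TPM did not, at 13.5 and 12.8 in the first and 30.01 and 29.3 in the second (log2 ratio -1.17). The median of that ratio was -1.01 over the family and -0.79 over expressed nuclear protein-coding genes, so genes at large shifted the same way. The protein-coding transcripts of Rps27l held 11.1 and 12.0 TPM in the first quantification and were at 0 in the second. For Rps27, 92.5% of the level in the second quantification stood on a transcript typed retained intron, which held 0.49% in the first. An additional pair, Rps4l and Rps4x, has a paralog outside the rule because no transcript of Rps4l is typed protein-coding; it stood at 22.6 and 21.3 TPM, against 168 and 163 TPM for Rps4x.

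The 2 libraries gave nearly the same picture. Over the 81 detected genes, log2 levels in replicates 1 and 2 had a Pearson correlation of 0.997, a description over genes that share both libraries. Ratios of replicate 1 over replicate 2 were taken on expected counts after TMM scaling (a library-size correction) for genes at a mean of 1 CPM or more. The median log2 ratio was -0.02 over the 81 genes and 0.01 over nuclear protein-coding genes. None of the 81 reached a log2 size of 1, against 0.516% of all 15509 genes compared, and none reached 0.5, against 2.53% of nuclear protein-coding genes. A ratio above 0 was seen for 28 of 81 (34.6%), against 53.9% in the background.

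Among genes with a mean of 500 to 8000 counts, the ratios of 78 members had an SD of 0.08, and those of 7210 nuclear protein-coding genes an SD of 0.10. The 5 members highest in replicate 1 were Rpl10 (log2 ratio 0.39), Rpl27 (0.36), Rpl11 (0.15), Rps23 (0.14) and Rps7 (0.13). Among those highest in replicate 2 were Rpl36a (-0.18), Rps12 (-0.16), Rplp1 (-0.13) and Rpl30 (-0.12). For Rpl10, which joins the large subunit late in its maturation, expected counts were 1040 in replicate 1 and 831 in replicate 2. The TPM intervals that the authors deposited for Rpl10 ran from 54.2 to 87.2 in replicate 1 and from 41.9 to 71.7 in replicate 2 and overlap. In the second quantification Rpl10 had 3205 and 3286 estimated counts, so the gap between libraries was not seen there.

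**Figure D3:**
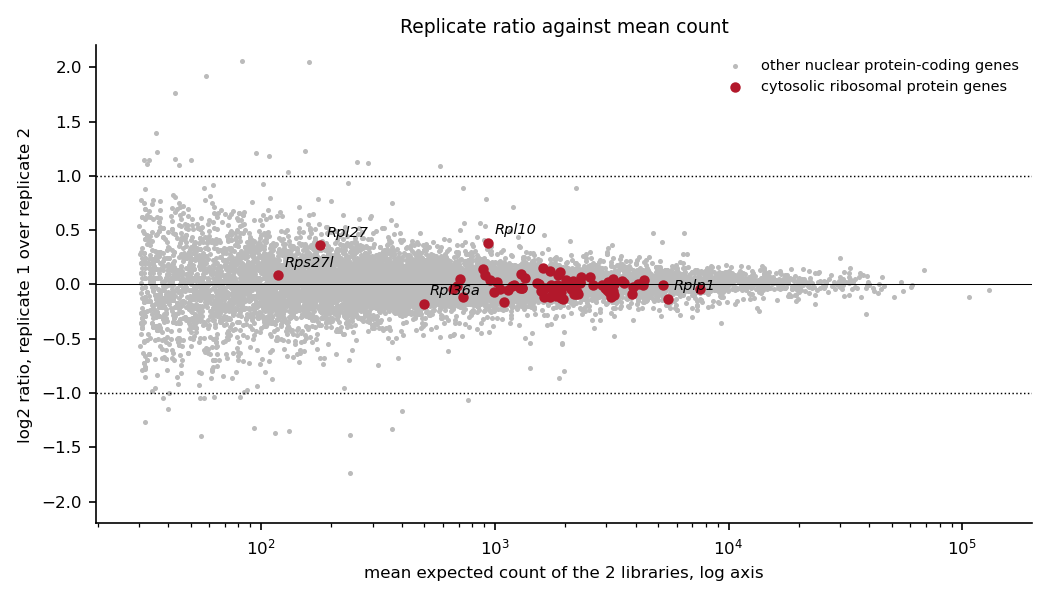
Log2 ratio of replicate 1 over replicate 2 against mean expected count on a log axis; red points are the 81 ribosomal protein genes that pass the count minimum, grey points are other nuclear protein-coding genes (10 lie outside the drawn range), and dotted lines mark a log2 size of 1. The red points stay between -0.18 and 0.39.

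As a check of the labelled tissue, markers of its main cell types were looked up and detected in both libraries: 3 of 3 for neurons (summed level 1998 and 1942 TPM), dentate granule cells (75.7 and 83.0), CA1 (167 and 166), CA3 (67.9 and 62.3), astrocytes (819 and 882) and oligodendrocytes (788 and 876) in replicates 1 and 2. Of 4 choroid plexus markers 2 were detected, with a summed level of 127 and 70.5 TPM, and all 4 blood markers, with 328 and 583 TPM. The choroid plexus sum was thus higher in replicate 1 and the blood sum in replicate 2. Most of the choroid plexus sum was Ttr (120.9 and 65.7 TPM), while Kl, the other detected marker, was close (4.51 and 4.09 TPM). The part of choroid plexus and blood RNA in the ribosomal protein ratios was not tested.

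The 2 quantifications of the same reads differed far more for this family than the 2 libraries did. On TPM, 41 of 81 genes were lower in the first quantification than in the second by a log2 ratio of -1 or below, against 22.9% of expressed nuclear protein-coding genes. None was higher by 1 or more, against 0.283%. The median log2 ratio was -1.01 for the family and -0.79 for all, so genes at large shifted the same way. The lowest TPM ratios were those of Rpl27 (-4.04), Rpl27a (-3.07), Rpl10 (-2.86), Rps23 (-2.73) and Rpl5 (-2.36), and the highest those of Rpl36 (0.83), Rpl19 (0.53), Rpl17 (-0.06), Rplp1 (-0.10) and Rps3 (-0.10). On counts the medians were near 0, at -0.07 for the family and -0.12 for all. Then 5 of 81 genes lay at -1 or below, against 3.14%, and 5 at 1 or above, against 0.66%. At a log2 size of 0.5, 22 of 81 were apart (27.2%), against 6.76%. Over the 81 genes, log2 TPM of the first and second quantification had a Pearson correlation of 0.736 and a Spearman correlation of 0.660.

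Ribosomal protein mRNAs have been copied back into the genome many times, and the resulting processed pseudogenes can be near-identical to the source. Here a copy is a transcript of a pseudogene type that matched the gene's coding transcript of highest TPM in the second quantification. Where all were at 0 there, as in Rps27l and Rpl39l, the first by identifier was taken. The match had to reach 95% identity or more, over 100 bases or more and 50% or more of the shorter sequence. By that measure 79 of 84 genes had at least 1 copy, against 9.6% of nuclear protein-coding genes, and 19 had 10 or more, against 1.06%. The median was 5 copies. Rpl21 had 61, Rpl7a 39 and Rps2 31, and Rpl41, Rps27l, Rpl3l and Rpl39l were among those with none. Together the 598 different copies held 19.5% ± 0.0718 of the counts of members and copies in the first quantification and 10.02% ± 0.0840 in the second.

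Rps23, which lies at the decoding centre of the small subunit, shows how close a copy can be. The lines give coding bases 1 to 60 of Rps23 (chromosome 13, 90922958 to 90924950, + strand) and of 2 processed pseudogenes, Rps23-ps1 (chromosome 3, 37714740 to 37715164, + strand) and Rps23-ps2 (chromosome 8, 3583799 to 3584230, - strand), from the M21 transcripts, with capitals where Rps23-ps2 differs.
Rps23: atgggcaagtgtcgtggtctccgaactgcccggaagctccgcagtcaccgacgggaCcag
Rps23-ps1: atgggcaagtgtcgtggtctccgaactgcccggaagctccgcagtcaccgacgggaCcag
Rps23-ps2: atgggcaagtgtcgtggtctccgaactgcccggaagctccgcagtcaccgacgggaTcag

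Rps23-ps1 matched the coding sequence without a difference over 425 of its 429 bases, and Rps23-ps2 had 2 differences over 429. A read that lies within the shared stretch does not say which locus it came from. In the first quantification Rps23-ps1 held 2062 and 2405 expected counts in replicates 1 and 2 and Rps23 itself 912 and 862. The second quantification gave Rps23-ps1 no counts and Rps23 3057 and 3329. Summed with its copies, Rps23 had 2979 and 3276 counts in the first quantification and 3067 and 3336 in the second. The log2 ratio between the quantifications was -1.85 for Rps23 alone and -0.03 with its copies.

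Rpl27, of the large subunit, showed the same division. It held 197 and 160 expected counts in the first quantification, against 1235 and 1241 estimated counts in the second (log2 ratio -2.80). Its 7 copies held 1018 and 1074 counts in the first and 1 in the second. Of these copies, 2 match all 408 coding bases without a difference, and each held 507 and 536 of the counts. With copies the ratio for Rpl27 was -0.02, so the 2 quantifications lay together once gene and copies were counted as 1.

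Some other members moved in the same way once their copies were added, and others moved further apart. The log2 count ratio of Rpl36a was -1.10 alone and -0.05 with copies, with 515 and 554 counts in the first quantification on Rpl36a-ps2, which matches all 318 coding bases. For Rpl21 the ratio was -1.06 alone and -0.02 with copies, for Rpl27a -0.92 and 0.01, for Rpl37 -0.85 and 0.02, and for Rpl5 -0.84 and 0.02. The 8 copies of Rpl5 held 2609 and 2911 counts in the first quantification, more than the 914 and 900 on Rpl5 itself. Among those that moved further apart were Rps15 (0.57 alone and 0.75 with copies) and Rps16 (0.05 and 0.31). Over the 81 genes the median size of the log2 count ratio was 0.17 alone and 0.11 with copies. The number apart by 0.5 or more was 12 with copies, against 6.62% of all genes treated the same way; 1 gene lay at -1 or below (3.02%) and 4 at 1 or above (0.667%).

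The genes that stayed apart with copies included some of the highest in the family. Rpl10 was lower in the first quantification by -1.80 alone and by -1.78 with its 10 copies, which held 19.8 and 19.2 counts. Other members stayed higher in the first. Rpl36 had 947 and 961 expected counts in the first quantification, against 151.7 and 118.1 estimated counts in the second (log2 ratio 2.83 alone and 2.21 with copies). Rplp1 had 5120 and 5850, against 1730 and 1906 (1.59 in both ways of counting). For Rps29 the ratio was 1.62 alone and 1.73 with copies, and for Rps21, of the small subunit, 1.66 and 1.67. Rpl19 was at 1.70 alone and 0.67 with copies, which held 116 and 65.4 counts in the first quantification and 1126 and 1240 in the second. What sets these genes apart was not tested, and their rank in the family depends on the quantification: in the second, Rpl41 stood at 1437 and 1421 TPM, above Rplp1 at 636 and 689 TPM.

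**Figure D4:**
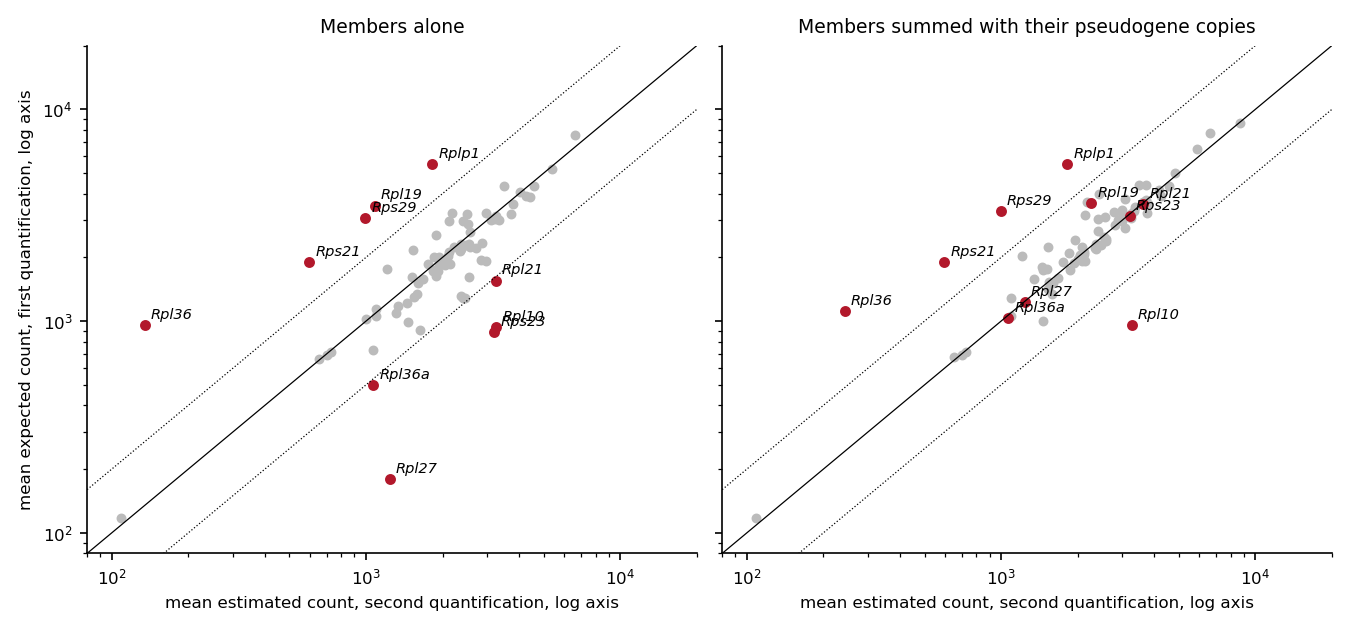
Mean count of the 81 detected genes in the first quantification (vertical) and the second (horizontal), both on log axes, for the genes alone (left) and summed with their pseudogene copies (right); the line marks equal counts, dotted lines a log2 size of 1, and red points are labelled. Rpl27, Rps23, Rpl36a and Rpl21 move onto the line at the right, while Rpl10, Rpl36, Rps29, Rps21 and Rplp1 stay off it.

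By symbol, 300 genes carry a ribosomal protein name with the pseudogene ending -ps. At 1 TPM or more in both libraries, 45 were detected in the first quantification and 25 in the second. Their summed level equalled 15.7% ± 0.0603 of that of the 84 genes in the first and 5.44% ± 0.0597 in the second. Because the reads of gene and copy overlap, these values are uncertain and do not show that a pseudogene was transcribed.

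Within the genes, levels were also divided among annotated transcripts. The 84 genes have 235 transcripts typed protein-coding, 176 typed retained intron, 65 typed processed transcript (no open reading frame annotated) and 25 typed nonsense-mediated decay, a class degraded during translation. Protein-coding transcripts held 82.9% ± 0.298 of the family's TPM in the first quantification and 68.8% ± 0.0333 in the second. Retained-intron transcripts held 8.53% ± 0.0719 and 16.8% ± 0.177, and processed transcripts 5.001% ± 0.0592 and 11.4% ± 0.206. Nonsense-mediated decay transcripts held 3.58% ± 0.167 and 2.88% ± 0.00462.

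A protein-coding transcript was the highest of its gene for 66 of 81 members (81.5%) in the first quantification, against 92.1% of detected nuclear protein-coding genes, and for 59 of 81 (72.8%) in the second, against 89.9%. The leading transcript was the same in both libraries for 78 of 81, against 89.9%. It was the same in both quantifications for 38 of 81 (46.9%), against 77.0%. Thus the 2 libraries chose the same leading transcript for nearly all members, and the 2 methods for fewer than in the background.

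In the first quantification, 15 members were led by a transcript of another type. Those led by a retained-intron transcript included Rps26, whose leader held 93.6% and 94.3% of the gene's TPM in replicates 1 and 2, Rps20 (83.1% and 82.0%), Rps23 (75.8% and 82.7%), Rps18 (71.7% and 82.8%) and Rps16 (58.5% and 62.1%). All of these belong to the small subunit. In the second quantification Rps16 and Rps20 kept that leader, at a share of 80.01% ± 0.0155 for Rps16 and 53.8% ± 4.81 for Rps20. The leaders of Rps23 and Rps18 were at 0 there. That of Rps26 held a mean of 47.7%, below a protein-coding transcript with 51.6%.

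Of the 6 members led by a processed transcript, all of the large subunit, Rpl35 had 92.4% and 90.8% of its TPM on the leader in replicates 1 and 2. The others were Rpl22l1 (75.4% and 90.8%), Rpl24 (73.1% and 78.5%), Rpl23 (72.8% and 66.6%), Rpl37 (52.8% and 41.0%) and Rpl13a (25.2% and 21.2%), the leader being set on the mean of the libraries. In replicate 2 another transcript was higher in Rpl13a, a protein-coding one with 23.4%, and in Rpl37, also a processed transcript, with 42.6%. Nonsense-mediated decay transcripts led Rpsa (79.4% and 79.3%) and Rpl12 (52.7% and 57.6%), among others. For Rpl23, Rpl37 and Rpl13a the second quantification put an even larger share on the same transcript, with means of 92.2%, 94.2% and 68.4%. For Rpl24 and Rpsa it named a protein-coding leader instead. In Rpl22l1 the leader of the first quantification held a mean of 7.10% in the second, where another processed transcript led.

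A further 12 members were led by a protein-coding transcript with a mean of under 60% of the TPM. In replicates 1 and 2 the leader held 55.0% and 59.4% in Rps25, 53.6% and 55.9% in Rpl7, 45.3% and 38.7% in Rpl31, 41.9% and 42.6% in Rpl15, and 55.9% and 51.0% in Rps15a. It held 50.4% and 56.7% in Rps7, 57.8% and 55.5% in Rps12, 47.3% and 43.8% in Rpl11, and 59.4% and 60.3% in Rpl5. The widest gaps between the libraries among the 12 were in Rpl27 (65.6% and 46.2%), Rpl10a (51.7% and 63.2%) and Rpl18 (61.8% and 54.9%). For Rps25, Rpl7, Rpl31, Rpl15 and Rps15a that leader was at 0 in the second quantification. Rps7 and Rps12 kept it, at 93.7% ± 0.299 and 89.9% ± 10.8. For Rpl10a, Rpl18, Rpl11, Rpl5 and Rpl27 the mean share of the same leader ran from 5.13% to 50.2% there. These levels of single transcripts are estimates from reads that overlapping transcripts share.

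**Figure D5:**
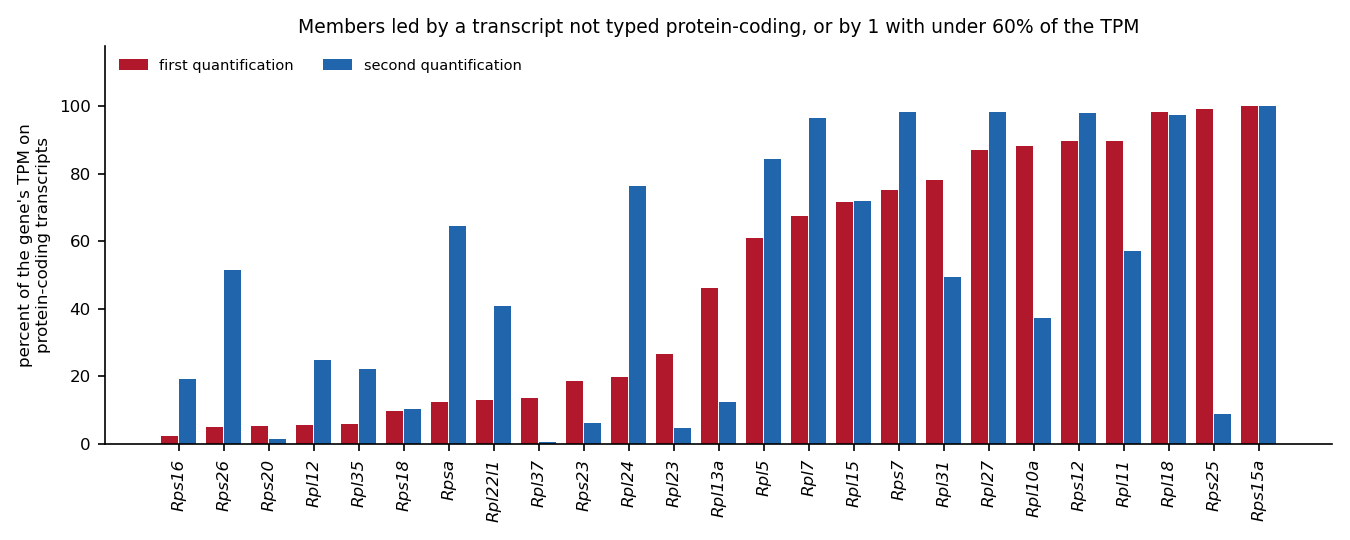
Percent of each gene's TPM that falls on transcripts typed protein-coding, for 25 of the 27 detected members led by another type or by a transcript with under 60% of the TPM; red bars are the first and blue bars the second quantification, each over the 2 libraries together. For Rpsa the bars stand at 12.5% and 64.5%, and for Rps25 at 99.2% and 8.79%.

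Rps24 is a member whose transcripts differ in their short last exons and so in the end of the protein. The transcript that led in the first quantification held 92.3% and 89.0% of its TPM in replicates 1 and 2, and 34.1% and 33.0% in the second. A second protein-coding transcript held 0.375% and 0.773% in the first quantification and 55.4% and 57.5% in the second. Another held 4.52% and 6.30% in the first and 7.05% and 6.55% in the second. The leading transcript was the same in both libraries within each quantification and differed between the quantifications.

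Length accompanied level in this family. Across the 81 detected genes, log2 TPM and log2 mean transcript length had a Pearson correlation of -0.424 (Spearman -0.421) in the first quantification and -0.382 (Spearman -0.361) in the second, a description over genes that share both libraries, and TPM is itself divided by length. The number of pseudogene copies had almost no such relation with level, with Pearson values of -0.03 and 0.09. Small nucleolar RNA genes, which guide the modification of ribosomal RNA and are often carried in introns of ribosomal protein genes, lay on the same strand within 30 of 84 members, against 1.27% of nuclear protein-coding genes. These 30 hosts carry 58 such genes, with 5 in Rpl4 and 4 in Rpl13a. Only 12 of the 58 had counts in both libraries. Of the 58, 35 had an effective length of 0 in a library, for which the tables can give no level per length. The highest counts were 341 and 340 for Gm26448 in Rpsa, and 310 and 297 for Snord15b in Rps3.

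Genes of the ribosome outside the naming rule and genes of ribosome assembly were detected with them. Fau, a fusion of a ubiquitin-like protein with a small-subunit protein, stood at 283 and 264 TPM in replicates 1 and 2, and Rack1, a signalling scaffold on the small subunit, at 91.9 and 88.1 TPM. Both lay within the range of the detected members, from 12.8 to 647.0 TPM.

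The assembly machinery stood well below the ribosomal proteins. For comparison, 58.0% of nuclear protein-coding genes were detected, and those had a median of 14.56 and 14.54 TPM in replicates 1 and 2. Each of 14 early assembly genes passed 1 TPM in both libraries, and their median was 20.1 ± 0.191 TPM, led by the nucleolar chaperone Npm1 (68.4 and 71.8 TPM), Nop56 (65.2 and 65.1) and nucleolin, Ncl (54.7 and 54.8). The same held for 14 genes of subunit maturation and export, whose median was 14.9 ± 0.293 TPM, led by Sbds (31.8 and 32.0), Eif6, which keeps the subunits apart (28.7 and 25.4), and Bop1 (24.7 and 25.3). Chaperones of single ribosomal proteins, 6 of 6 detected, had a median of 27.5 ± 0.332 TPM, led by Nap1l1 (62.3 and 61.4), Aamp (60.4 and 60.5) and Tsr2 (29.5 and 28.6).
Of 10 genes that control oligopyrimidine mRNAs, 9 were detected. Larp1, the protein that binds the TOP motif, stood at 37.2 and 36.3 TPM and Mtor at 35.5 and 37.2 TPM. Tsc2, a brake on mTOR, was the highest of this list at 80.2 and 87.1 TPM, and Eif4ebp1 fell below 1 TPM in replicate 1 (0.87 and 1.28). None of the genes compared in these 5 lists reached a log2 size of 1 between the replicates.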

How the data were processed

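Total RNA reduced in ribosomal RNA was sequenced from 2 hippocampus libraries. Per the file headers, the authors' first quantification gives expected counts and TPM per gene and transcript, deposited with lower and upper TPM interval bounds, which are treated here as a score. The authors' second deposited table gives estimated counts and TPM per transcript, which were summed per gene. The genome build is mm10 per the labels. Gene names, transcript types and coding sequences were taken here from GENCODE M21, and start windows from RefSeq. No source used here names the software behind either table. Reads were counted as the authors deposited them, so a read shared by a gene and its copy was divided by their methods.

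The members, the related lists and the comparisons were chosen with earlier results of these data known, and 3 groups (stalk, 5S particle and X-linked) were chosen after values were seen. Named genes were the 10 highest and 8 lowest members, members under 1 TPM, paralog pairs, the 5 largest ratios each way between libraries and between quantifications, members led by a transcript with under 60% of the TPM or not typed protein-coding, and the 3 highest of each related list; others are named by role or as examples. Some genes are not reported here by name and are not drawn, but stay in all counts and medians.

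Spike-in RNAs (96 sequences, 0.378% and 0.368% of counts in replicates 1 and 2) name no gene and stayed out of library sizes and comparisons. Size factors came from edgeR 4.0.16 (TMM) in R 4.3.3, run on expected counts after rounding; DESeq2 1.42.0 size factors were an alternative. Replicate and quantification ratios on counts used a pseudocount of 0.5, and TPM ratios one of 0.01. With 1 group of 2 libraries no p-value was computed. Copies were found with blastn 2.17.0 among 13583 genes of pseudogene types. Summaries used Python 3.11.15, pandas 2.3.3 and numpy 2.4.6. The ratio between replicates was tested on simulated counts. The copy search, the transcript shares and the letter matches were not. The library totals leave counting error small for most members; intervals and floors cover counting error only.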

Additional observations from a re-analysis of the deposited data

How the results depend on the processing

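The count of 81 detected members did not change under any alternative run, and 59 to 68 members were led by a protein-coding transcript. In the second quantification the family's share of protein-coding TPM was 4.21%, its median 331 TPM, the large-over-small log2 difference 0.043 (sign reversed), the protein-coding transcript share 68.8%, the detected pseudogenes 25, their TPM 5.44% of the members' and the log2 ratio of Rpl36al over Rpl36a -0.54 (reversed, though not on protein-coding transcripts alone). By expected counts these shares were 0.751% for the family, 83.9% for protein-coding transcripts and 13.1% for pseudogenes. Against all annotated genes the family held 1.47% of TPM. The median over detected members was 160.8 TPM. The large-over-small difference was -0.97 by mean log2 and -0.14 without paralogs. With no CPM minimum, 1 member, at 0 and 1 counts, was apart between replicates. Between quantifications the median log2 ratio was -0.30 after rescaling to long genes, -0.069 on counts and 0.00085 on counts with copies (reversed); the last was chosen after seeing the data, as were counts for members apart and coding-only paralog ratios. Members apart numbered 7 at a log2 size of 2, 14 rescaled and 10 on counts. The cause was not tested. Leaving out 1 library gave shares of 3.57% to 3.65%, medians of 155.6 to 156.3 TPM and quantification medians of -1.03 to -1.01. Of 27 leading-transcript shares, 25 moved beyond 1 SD in the second quantification. With 2 libraries, leaving out 1 cannot move a mean beyond 1 SD, so that run does not show how steady these shares are. The ratio between replicates needs both libraries, so none was left out there. No paired analysis was possible because there is only 1 group. Depth limits statements on Rpl3l, Rpl39l and Rpl10l, which held 7 counts or fewer in each library.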
